A study of Mus musculus with 6 samples.

Results

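The genes described here were 4 Notch receptors (Notch1, Notch2, Notch3 and Notch4), 3 ligands (Dll4, Jag1 and Jag2) and 3 target genes (Nrarp, Heyl and Hes1). They were chosen by name, as the entries of the deposited count table whose gene symbol equals one of these names, and make up 10 of the 45792 genes in the table. The names were chosen with earlier results of these data known. Expression was read from RNA sequencing of whole hearts dissected from mouse embryos at embryonic day 13.5, in 3 control hearts and 3 Tie2Cre;Ino80 fl/fl hearts. To ask how endothelial deletion of the chromatin remodeler Ino80 bears on Notch gene expression, the groups were compared for each gene.

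Control embryos carry the genotype label wild-type, and mutant embryos the label Tie2Cre INO80 flox/flox. In the flox allele, loxP sites flank exon 6 of Ino80, and the Tie2Cre transgene expresses Cre recombinase in endothelial cells, including the endocardium, and in their descendants, so that cardiomyocytes keep the gene. The strain label is C57BL/6 in both groups, whereas the methods describe mixed backgrounds for the transgenic mice and define controls elsewhere as every other genotype of the cross. Embryos were not typed for sex. Each library came from the RNA of a whole heart, which mixes cardiomyocytes, endocardium, coronary endothelium, mural cells, epicardium and blood. In such bulk samples, fewer cells of a type and less RNA per cell cannot be told apart.

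Notch receptors are read out by contact between neighbouring cells. A Delta or Jagged ligand on one cell pulls on the receptor of the next, the receptor is cleaved, and its intracellular part enters the nucleus, where it joins the DNA-binding protein Rbpj and a Mastermind coactivator to switch on target genes. Hes and Hey targets encode basic helix-loop-helix repressors, and Nrarp encodes a small ankyrin repeat protein that binds the nuclear complex and limits its activity. In blood vessels, Dll4 and Jag1 on endothelial cells engage Notch1 and Notch4 on other endothelial cells and Notch3 on pericytes and smooth muscle cells, and the pathway is known for its part in arterial fate, sprouting and the recruitment of mural cells. In the embryonic heart, endocardial Notch1 takes part in trabeculation.

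The sequences before the start sites show where binding letters for these factors occur. RefSeq promoter windows (build GRCm38.p6, 250 bases before to 50 after each start site) were at hand for 8 of the 10 genes, all but Heyl and Hes1. The letters searched, on both strands, were the Rbpj core GTGGGAA, the E-box CACGTG and the Hes and Hey class C site CACGCG. No window of the 8 genes held GTGGGAA, which 6.38% of all 32851 windows hold. CACGTG (7.15% of all windows) stood in the Nrarp window alone among the 8, at position -108 from the start site. CACGCG (9.27% of all windows) stood in 4 windows, at -195 in Dll4, at -42 in Notch2, at 19 in Jag2, and at both -249 and -171 in Jag1, where 1.67% of all windows hold 2 or more. CACGCG holds 2 CG pairs, and these windows were rich in them, with 17 in Dll4, 41 in Notch2, 63 in Jag2 and 22 in Jag1. The median over all windows was 7, so the shares of all windows are not matched for base composition. A match is a run of letters and not a binding site. The lack of one says only that these letters are not in the window. Positions are counted from the RefSeq start site, which for Nrarp and Dll4 is also the annotated gene start. For Jag1 the RefSeq site is at 137116520 and the annotated gene start at 137116644, further upstream. The Jag1 stretch printed below has 126 bases, so its marked letters lie nearer to its end than -249 and -171. The Jag2 and Notch1 windows lie within the annotated genes. The stretches before the annotated gene start are printed for Nrarp and Jag1, the genes with a window whose levels did not overlap between the groups, and for Dll4, whose levels did overlap. Capitals mark CACGTG in Nrarp and CACGCG, read on either strand, in Jag1 and Dll4. They lie at chr2:25180508-25180757 (plus strand), chr2:137116645-137116770 (minus strand) and chr2:119325534-119325783 (plus strand).
Nrarp: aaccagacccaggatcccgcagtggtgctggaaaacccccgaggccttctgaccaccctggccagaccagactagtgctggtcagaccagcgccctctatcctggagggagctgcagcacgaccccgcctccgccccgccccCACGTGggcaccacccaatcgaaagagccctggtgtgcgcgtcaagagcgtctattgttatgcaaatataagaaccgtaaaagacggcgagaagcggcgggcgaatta
Jag1: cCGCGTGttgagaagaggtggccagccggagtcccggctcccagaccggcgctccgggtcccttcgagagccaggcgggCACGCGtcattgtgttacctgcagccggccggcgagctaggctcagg
Dll4: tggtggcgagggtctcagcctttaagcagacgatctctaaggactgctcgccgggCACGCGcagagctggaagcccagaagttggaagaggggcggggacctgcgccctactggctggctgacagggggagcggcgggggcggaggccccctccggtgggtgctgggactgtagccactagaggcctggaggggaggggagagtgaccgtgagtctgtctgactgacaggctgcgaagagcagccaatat

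Total counts ran from 28948836 to 89675692 per heart, with mutant replicate 1 the deepest. Of 45792 genes, 17125 passed the filter on low counts, all 10 Notch genes among them. Levels are counts per M counts (CPM) after TMM scaling, which adjusts the library totals for composition, and fold changes are mutant over control on the log2 scale. They were tested by the quasi-likelihood method of edgeR, and p-values were adjusted over the 17125 genes by Benjamini and Hochberg's procedure. The labels call the hearts biological replicates, and p-values measure only the spread between these 6 hearts. Ino80 was at 30.2, 31.6 and 32.7 CPM in control and at 36.5, 33.7 and 31.8 CPM in mutant hearts, which overlapped, so that counts over the whole gene do not check the genotype labels, and control and mutant are used below as the labels give them. The 16 cardiomyocyte markers summed to 31318 to 38484 CPM in control and 31512 to 34081 CPM in mutant hearts, and 8 liver markers to 1.85 to 4.26 CPM. Summed erythroid markers ran from 9300 to 39407 CPM in control hearts, highest in control replicate 3, and from 6431 to 11449 CPM in mutant hearts. The sum mixes directions, since the adult globin gene Hbb-bs was at a mean of 6659 CPM in control and 1852 CPM in mutant hearts, and the embryonic globin genes Hbb-y (217 and 1043 CPM) and Hba-x (24.3 and 100.1 CPM) were higher in every mutant heart.

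At an adjusted p under 0.05, edgeR called 0 of the 10 Notch genes, as it called 0.0% of all tested genes. At an unadjusted p under 0.05 it called 3 of the 10, the targets Nrarp and Heyl lower and the ligand Jag1 higher, against a background of 19.5% of all tested genes. At an adjusted p under 0.1 it called 1, Nrarp, against 2.39%. The same 3 genes were those whose groups did not overlap, against 27.1% of all tested genes. DESeq2 called 2 of the 10 at an adjusted p under 0.05, Nrarp and Heyl, both lower, where it called 6.1% of genes with 3.43% lower and 2.67% higher. The paper's discussion says that its RNA sequencing showed no significant change of the Notch pathway, and names no single pathway genes there. Log2 fold changes were below 0 for 9 of the 10, against 50.3% of all tested genes, with a median of -0.10 beside a median of -0.0017 over all tested genes. With scaling by library totals alone, the log2 ratios of mean CPM lay above 0 for Notch2 (0.04) and Hes1 (0.04) as well. The balance rested on 1 control heart: without control replicate 3, only 4 of the 10 lay below 0 and their median was 0.04. In the plot of levels by heart, Nrarp and Heyl separate downward, Jag1 separates upward by a small margin, and the other 7 overlap.

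**Figure D1:**
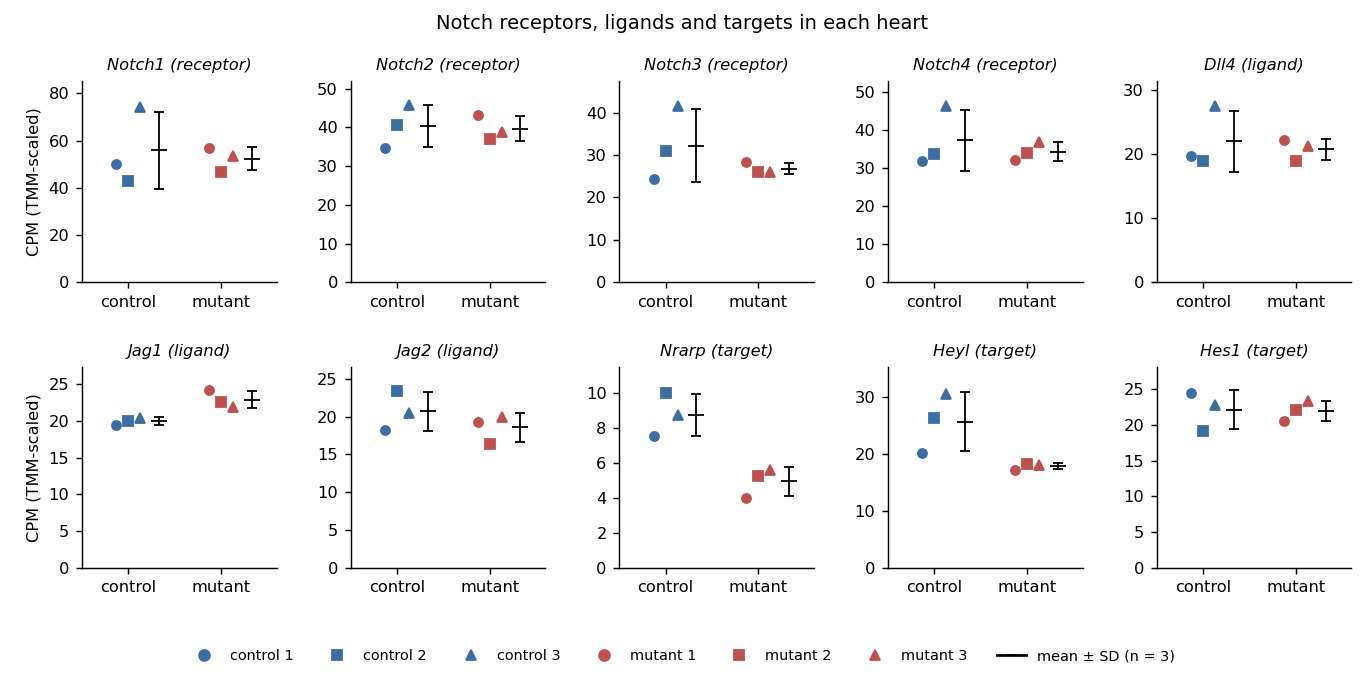
Level of each Notch gene (TMM-scaled CPM, linear axis from 0) in the 3 control hearts (blue) and 3 mutant hearts (red), with marker shapes for replicates 1 to 3 and black bars for the mean ± SD (n = 3). Nrarp (4.0 to 5.61 CPM in mutant, 7.57 to 9.97 CPM in control hearts) and Heyl are lower in every mutant heart than in any control heart, Jag1 is higher, and control replicate 3 is the highest heart for all 4 receptors and Dll4.

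None of the 4 receptors passed the test, and their groups overlapped. Notch1, the main receptor of endocardium and arterial endothelium (chromosome 2, 26457903 to 26516663, minus strand, GRCm38), was at 50.2, 42.9 and 74.3 CPM in control replicates 1 to 3 and at 56.7, 46.9 and 53.5 CPM in mutant replicates 1 to 3. Control replicate 3 was above all other hearts and control replicate 2 below them, with the mutant hearts between. The log2 fold change was -0.09 (standard error 0.19, 95% confidence interval -0.52 to 0.34, adjusted p = 0.81 from edgeR).

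Notch2, a broadly expressed receptor also found in smooth muscle and epicardium-derived cells (chromosome 3, 98013527 to 98150361, plus strand), was at 34.8, 40.5 and 45.7 CPM in control and 43.2, 37.0 and 38.8 CPM in mutant hearts. The control hearts spanned the mutant hearts on both sides. Its log2 fold change was -0.02 (standard error 0.11, 95% confidence interval -0.29 to 0.24, adjusted p = 0.93 from edgeR).

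Notch3, the receptor of pericytes and vascular smooth muscle cells (chromosome 17, 32120820 to 32166852, minus strand), was at 24.4, 30.9 and 41.5 CPM in control and 28.3, 26 and 26.1 CPM in mutant hearts. The mutant hearts lay close together, above control replicate 1 and below the other 2 control hearts. Its log2 fold change of -0.26 was the lowest of the receptors (standard error 0.17, 95% confidence interval -0.66 to 0.13, adjusted p = 0.42 from edgeR). It depended on single control hearts. Leaving out control replicate 3 gave -0.04, and leaving out control replicate 1 gave -0.43, with an unadjusted p of 0.014 and an adjusted p of 0.12 in edgeR.

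Notch4, a receptor known mainly from endothelium (chromosome 17, 34564268 to 34588503, plus strand), was at 31.8, 33.7 and 46.3 CPM in control and 32.1, 33.9 and 37.0 CPM in mutant hearts. All but control replicate 3 lay within a narrow band. Its log2 fold change was -0.12 (standard error 0.14, 95% confidence interval -0.45 to 0.21, adjusted p = 0.66 from edgeR). Without control replicate 3, the log2 fold changes of Notch1, Notch2 and Notch4 lay above 0, at 0.17, 0.08 and 0.07, so the direction for these receptors rested on that heart, and for Notch2 also on mutant replicate 2 (0.03 without it).

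The shares of the 4 receptors in their common total overlapped between the groups. Expressed as a share of the 4 receptors' summed level per kb of exon, which does not depend on the scaling between hearts, Notch1 took 23.9% ± 3.06 in control and 24.6% ± 1.24 in mutant hearts, and Notch2 23.3% ± 2.30 and 24.6% ± 1.15 (SD, n = 3 each). For Notch3, the share was 22.0, 25.9 and 25.2% in control and 22.6, 22.7 and 21.3% in mutant hearts. Notch4 took 28.4% ± 0.28 and 28.6% ± 2.46 (SD, n = 3 each). No share passed the exact two-sided permutation test over hearts (p from 0.3 for Notch3 to 1 for Notch4, adjusted over the 4 receptors 0.8 to 1, where 0.1 is the smallest p that 3 against 3 allows). Leaving out single hearts, the difference in share ran from -3.34 to -1.39 percentage points for Notch3. With the longest transcript in place of all exons, mean control shares were 30.1, 20.1, 20.6 and 29.2% for Notch1 to Notch4. The order of the receptors thus depends on the length used.

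Of the ligands, Jag1 was higher in every mutant heart than in any control heart, and Dll4 and Jag2 overlapped. Jag1, a ligand through which endothelial cells signal to mural cells (chromosome 2, 137081456 to 137116644, minus strand), was at 19.4, 20.1 and 20.4 CPM in control and 24.2, 22.6 and 21.9 CPM in mutant hearts. The control hearts were nearly equal, and all mutant hearts lay above them, replicate 3 by the least. The log2 fold change was 0.20 (standard error 0.08, 95% confidence interval 0.02 to 0.38, unadjusted p = 0.035, adjusted p = 0.22 from edgeR, adjusted p = 0.31 from DESeq2). Leaving out single hearts gave 0.16 to 0.24. The unadjusted edgeR p was then over 0.05 in 4 of the 6 fits, the highest 0.13 without mutant replicate 1.

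Dll4, the Delta ligand of arterial and sprouting endothelial cells (chromosome 2, 119325784 to 119335962, plus strand), was at 19.7, 18.9 and 27.6 CPM in control and 22.2, 19.0 and 21.2 CPM in mutant hearts. Control replicate 3 was again the highest, with the other 5 hearts close together. Its log2 fold change was -0.08 (standard error 0.15, 95% confidence interval -0.43 to 0.26, adjusted p = 0.78 from edgeR), and 0.11 without control replicate 3.

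Jag2, the second Jagged ligand (chromosome 12, 112907819 to 112929776, minus strand), was at 18.2, 23.4 and 20.5 CPM in control and 19.3, 16.4 and 20.0 CPM in mutant hearts. The groups overlapped, with mutant replicate 2 lowest and control replicate 2 highest. Its log2 fold change was -0.16 (standard error 0.12, 95% confidence interval -0.43 to 0.12, adjusted p = 0.48 from edgeR). It was -0.06 without control replicate 2 and -0.08 without mutant replicate 2.

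Nrarp, the feedback inhibitor, had the largest difference of the 10 genes. This single-exon gene (chromosome 2, 25180758 to 25183339, plus strand) was at 7.57, 9.97 and 8.77 CPM in control and 4.0, 5.24 and 5.61 CPM in mutant hearts, from 164 to 370 counts per heart. Every mutant heart was below every control heart, and the mean was 43.6% lower in mutants (4.95 ± 0.84 against 8.77 ± 1.20 CPM, SD, n = 3 each). The log2 fold change was -0.83 (standard error 0.17, 95% confidence interval -1.23 to -0.44), with an unadjusted p of 0.0012 and an adjusted p of 0.084 in edgeR, and an adjusted p of 0.0011 in DESeq2. Nrarp stood at rank 243 of the 17125 genes by edgeR's p. Leaving out single hearts gave -0.93 to -0.69, and without control replicate 1 the edgeR adjusted p was 0.036, in a fit that called 4.34% of all tested genes in place of 0.0%. Nrarp shares 2051 exon bases with the antisense gene Gm38287, which had 0 counts in all hearts, and whether counting used strand was not given in the sources used here.

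Heyl, a Hey family repressor known as a target of Notch3 in mural cells (chromosome 4, 123233556 to 123249875, plus strand), was at 20.1, 26.4 and 30.4 CPM in control and 17.2, 18.3 and 18 CPM in mutant hearts. Again no mutant heart reached the lowest control heart. The coefficient of variation was 3.11% among mutant and 20.3% among control hearts. The mean was 30.4% lower in mutants, with a log2 fold change of -0.52 (standard error 0.14, 95% confidence interval -0.85 to -0.20, unadjusted p = 0.0061 and adjusted p = 0.13 from edgeR, adjusted p = 0.022 from DESeq2). Leaving out control replicate 3 gave -0.38, and leaving out control replicate 1 gave -0.67 with an edgeR adjusted p of 0.017, in the same fit with calls for 4.34% of all tested genes.

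Hes1, a widely used repressor that is also driven by other pathways (chromosome 16, 30064384 to 30067796, plus strand), overlapped between the groups. It was at 24.5, 19.2 and 22.8 CPM in control and 20.5, 22.1 and 23.4 CPM in mutant hearts, with control hearts at both ends of the range. Its log2 fold change was -0.01 (standard error 0.11, 95% confidence interval -0.26 to 0.24, adjusted p = 0.96 from edgeR), and its sign turned without control replicate 1, control replicate 3 or mutant replicate 1, with values of 0.07, 0.01 and 0.04.

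**Figure D2:**
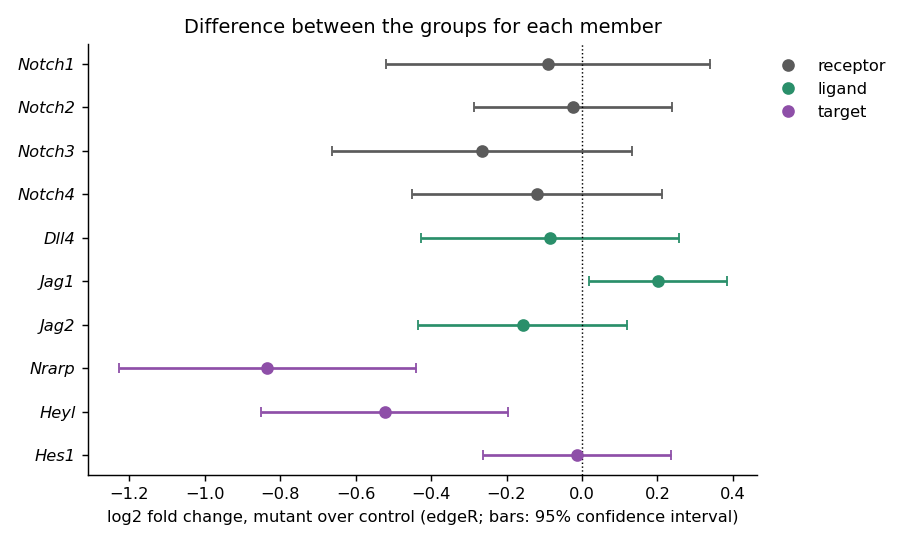
Log2 fold change (mutant over control, edgeR) of each Notch gene as a point, with its 95% confidence interval as a bar, coloured by role (receptor, ligand, target). The intervals of Nrarp (-1.23 to -0.44) and Heyl (-0.85 to -0.20) lie below 0, that of Jag1 (0.02 to 0.38) lies above 0, and the other 7 cross 0, none of them adjusted for the number of genes.

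Levels of different genes were compared only per length, as CPM per kb of exon. In control hearts, Hes1 was the highest at 10.9 ± 1.33 and did not overlap with the next gene, Dll4, at 5.73 ± 1.24 (SD, n = 3 each). Below Dll4 came Heyl at 5.02 ± 1.02, Notch4 at 4.62 ± 0.98, Notch3 at 3.99 ± 1.07, Notch1 at 3.92 ± 1.15, Notch2 at 3.74 ± 0.51, Jag1 at 3.43 ± 0.09, Nrarp at 3.40 ± 0.47 and Jag2 at 2.97 ± 0.37, and each of these overlapped with its neighbours in the order. The control levels stood between percentiles 41.5 and 72.7 of all tested genes on this scale. In the mutant order, Heyl was number 7 at 3.49 ± 0.11, Jag1 number 4 at 3.93 ± 0.20 and Nrarp number 10 at 1.92 ± 0.33. With the longest transcript in place of all exons, Hes1 and Dll4 stayed first and second in control hearts, Notch1 was number 3, Heyl number 5, Jag2 number 6, Notch3 number 7 and Nrarp number 10. Exon bases shared with genes on the other strand may have lost reads under the unstated counting setting. They were 2051 of 2582 in Nrarp and 1068 of 14232 in Notch1 (with 0610009E02Rik, at 10 to 38 counts per heart). Notch1 also shared 414 with Gm13568, and Notch3 shared 488 of 8089 with Gm17276. Dll4 shared 214 of 3852 with Gm14207, at 15 to 56 counts per heart. The per-length levels and places of these 4 genes are therefore uncertain.

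**Figure D3:**
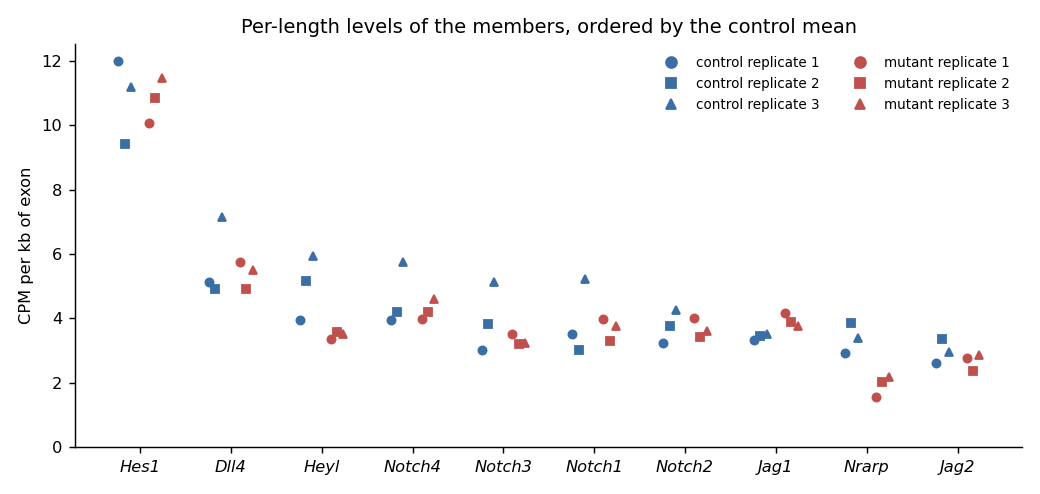
Level of each Notch gene in CPM per kb of exon (linear axis from 0), ordered by the control mean, with 1 point per heart (blue control, red mutant, marker shape by replicate). Hes1 stands above the others at 10.9 ± 1.33 in control hearts, and the rest lie close together apart from Nrarp in mutant hearts at 1.92 ± 0.33.

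Because Tie2Cre acts in endothelial cells, each level was also set against the endothelial content of the same heart, as log2 CPM minus the mean log2 CPM of 16 pan-endothelial markers. The summed markers ran from 1297 to 1640 CPM in control and from 1408 to 1441 CPM in mutant hearts, and 0 of them were at 0 in every heart. Of the 16, 3 were lower at an unadjusted p under 0.05 in edgeR, namely the surface protein gene Cd34 (log2 fold change -0.38), the junction gene Esam (-0.33) and the transcription factor gene Sox18 (-0.42). Among all tested genes, 9.98% were lower at that p. Without overlap between the groups, 2 of the 16 were lower and 1 higher. On this scale Nrarp differed by -0.77, with control values of -3.05, -2.59 and -3.07 and mutant values of -3.96, -3.58 and -3.47. Heyl differed by -0.44 (-1.64, -1.19 and -1.27 against -1.86, -1.77 and -1.79), and Jag1 by 0.26 (-1.69, -1.58 and -1.85 against -1.37, -1.47 and -1.51). These 3 genes did not overlap between the groups, at the smallest p the exact permutation test allows (p = 0.1, 0.33 after adjustment over the 10 genes). The other 7 overlapped, with differences from -0.17 for Notch3 to 0.06 for Hes1. Nrarp, Heyl and Jag1 had already separated in CPM, as had 27.1% of all tested genes, while the mean of the markers overlapped between the groups. The separation on this scale therefore largely restates that in CPM. How many of all tested genes separate on this scale was not computed. With the endothelial cadherin gene Cdh5 alone as the reference, Nrarp (-0.81) and Heyl (-0.48) still did not overlap, and Jag1 did (0.22, exact permutation p = 0.3).

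The targets were then related to the receptors within each heart, in a comparison added after the levels had been seen. Of 12 log2 ratios of a target to a receptor, 7 did not overlap between the groups. The ratios reuse the same targets and receptors, so they are not separate observations. Nrarp and Heyl had already separated in CPM while the receptors overlapped, so the ratios largely restate that difference. The share of such ratios without overlap over all genes was not computed. Heyl was lower relative to all 4 receptors, with log2 differences of -0.48 (Notch2) to -0.27 (Notch3). Nrarp was lower without overlap relative to Notch1 (-0.77), Notch2 (-0.81) and Notch4 (-0.73), and with overlap relative to Notch3 (-0.60, exact permutation p = 0.2). Hes1 overlapped for all 4, with differences from 0.01 to 0.23. For each ratio without overlap the exact permutation p was 0.1, the smallest possible, and 0.17 after adjustment over the 12 ratios.

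Markers of pericytes and of capillary endothelium moved with Nrarp and Heyl, in lists chosen with earlier results of these data known. Of all tested genes, 9.98% were lower at an unadjusted p under 0.05 in edgeR. Of the 11 pericyte markers, 9 were tested, 8 of these had log2 fold changes below 0, and 5 were lower at an unadjusted p under 0.05 in edgeR, namely Rgs5 (-2.62), Rgs4 (-1.86), Ndufa4l2 (-1.24), Kcnj8 (-0.74) and Cox4i2 (-0.67). Their summed level was 324 to 487 CPM in control and 275 to 296 CPM in mutant hearts. The receptor gene Pdgfrb (44.3, 50.4 and 60.0 CPM against 49.8, 43.4 and 44.8 CPM) and the proteoglycan gene Cspg4 (40.0, 50.6 and 67.5 CPM against 47.5, 41.1 and 44.5 CPM), both defining markers of pericytes, overlapped between the groups. Abcc9 (log2 fold change -0.17) and Anpep (0.14) overlapped as well. All 11 tested capillary markers of 12 had log2 fold changes below 0, 7 at an unadjusted p under 0.05, and their summed level was 742 to 975 CPM in control and 558 to 596 CPM in mutant hearts. No pericyte or capillary marker was at 0 in every heart.

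Other cell type lists moved as well, some of them the opposite way. Of 10 endocardial markers, 8 had log2 fold changes above 0, with a median of 0.34, and 2 were higher at an unadjusted p under 0.05 in edgeR. Their summed level was 418 to 825 CPM in control and 777.5 to 830.6 CPM in mutant hearts. Of 11 epicardial markers, 8 lay above 0, 4 were higher and 1 lower at that p, and the summed level did not overlap, at 242 to 272 CPM in control and 283 to 319 CPM in mutant hearts. Of 8 liver markers, 3 were tested and 2 of these lay below 0, at the low levels given above. Over the 6 hearts, Heyl still ran with the liver list at a Pearson's r of 0.947, beside 0.974 for the pericyte and 0.931 for the capillary list. The part of these lists in the differences of the Notch genes was not tested.

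Of 11 smooth muscle markers, Myh11 (-2.40), Actg2 (-1.93) and Lmod1 (-1.47) were lower and Cnn1 (0.48) and Synpo2 (0.39) higher at an unadjusted p under 0.05 in edgeR. The list summed to 1525 to 1715 CPM in control and 1449 to 1689 CPM in mutant hearts. Most of this sum was Acta2 (means of 1105 and 1023 CPM), so it does not show sparse genes such as Myh11 (means of 2.77 and 0.51 CPM). Of 10 arterial markers, 5 lay above 0 and 5 below. The connexin gene Gja5 (0.54), the ephrin gene Efnb2 (0.21) and the netrin receptor gene Unc5b (0.21) were higher at an unadjusted p under 0.05 in edgeR, and Fbln5 (-1.40) was lower. The list summed to 622 to 703 CPM in control and 692 to 741 CPM in mutant hearts. Gja5 encodes Cx40, which the paper uses as a marker of trabecular myocardium, so its level in whole hearts does not report arteries alone.

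How the target levels compare with these lists was measured in each heart, again added after the data had been seen. Relative to the 9 tested pericyte markers, whose mean log2 level differed by -0.82, the difference for Nrarp was -0.01 (exact permutation p = 1), Heyl was higher by 0.31 and Notch3 by 0.58 (p = 0.1 each, exact permutation test). Relative to the 11 tested capillary markers, which differed by -0.84, the differences were 0.01 for Nrarp, 0.34 for Heyl and 0.61 for Notch3 (exact permutation p = 1, 0.1 and 0.1). Relative to Pdgfrb and Cspg4 alone, which differed by -0.19, Nrarp was at -0.64, Heyl at -0.32 and Notch3 at -0.05 (exact permutation p = 0.1, 0.1 and 0.7). Cspg4 is among the genes that ran most like Notch3 (Pearson's r = 0.991), so the small value for Notch3 carries little information. After adjustment over these 9 comparisons, each exact permutation p of 0.1 became 0.15. The log2 difference of Nrarp was thus close to that of both lists, and that of Heyl was smaller than theirs. Both exceeded that of Pdgfrb and Cspg4, a reference picked from the pericyte list after its values were seen. The part of these cell types in the result was not tested.

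**Figure D4:**
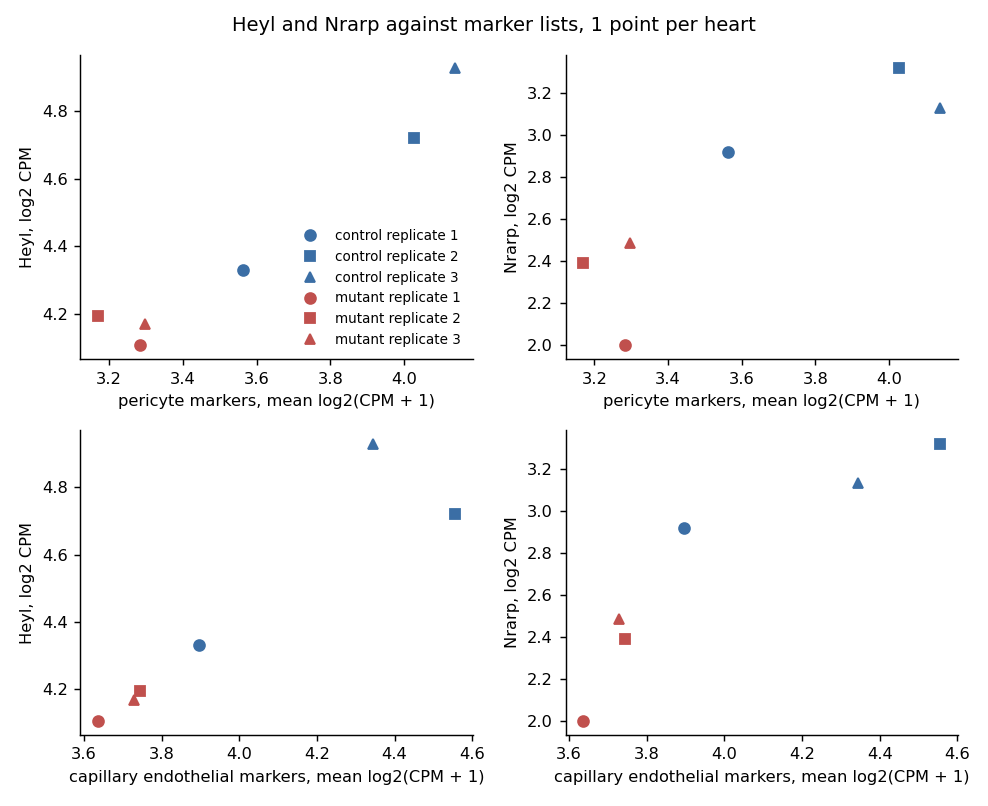
Log2 CPM of Heyl (left) and Nrarp (right) in each heart against the mean log2(CPM + 1) of the pericyte markers (top) and the capillary endothelial markers (bottom), with control hearts in blue, mutant hearts in red and marker shape by replicate. In all 4 panels the 3 mutant hearts lie at the lower left, and control replicate 1 is the control heart nearest to them.

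The other genes of the pathway were read from a list of 60 genes, of which 55 were tested. Their log2 fold changes were below 0 for 28 and above 0 for 27, with a median of -0.0027. At an unadjusted p under 0.05, 2 were lower and 5 higher, beside 9.98% lower and 9.48% higher among all tested genes, and none passed an adjusted p of 0.05 in edgeR. DESeq2 called 1 lower (Kat2b) and 1 higher (Dtx3) at an adjusted p under 0.05. The groups did not overlap for 4 lower and 11 higher genes, beside 12.8% and 14.3% of all tested genes. With scaling by library totals alone this became 1 lower and 14 higher, and over all tested genes 1545 lower and 3236 higher in place of 2192 and 2451. Without control replicate 1, 12 of 56 tested were at an unadjusted p under 0.05, beside 22.8% of all genes tested in that fit.

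Among the other targets, Hey2, a transcriptional repressor expressed in compact myocardium and arteries, was at 188, 210 and 165 CPM in control and 159, 151 and 151 CPM in mutant hearts (log2 fold change -0.29, standard error 0.09, unadjusted p = 0.015, adjusted p = 0.17 from edgeR). Hey1, its relative in arteries and atrial muscle, was at 15.6, 15.9 and 16.5 CPM against 14.7, 15.5 and 13.6 CPM (-0.13, adjusted p = 0.44 from edgeR). Both were lower in every mutant heart, and both overlapped when scaled by library totals alone. Rbpj, the DNA-binding partner of all 4 receptors, was at 81.7, 68.2 and 65.1 CPM against 80.2, 65.3 and 63.1 CPM (-0.04, adjusted p = 0.87 from edgeR), with the groups interleaved.

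The acetyltransferase gene Kat2b, a coactivator, was at 88.8, 96.8 and 95.7 CPM in control and 74.2, 76 and 70.7 CPM in mutant hearts (log2 fold change -0.35, adjusted p = 0.083 from edgeR and 0.0047 from DESeq2). Dtx3, a Deltex family gene, was at 40.0, 35.9 and 33.7 CPM against 55.1, 54.3 and 51.8 CPM (0.56, adjusted p = 0.065 from edgeR and 3.2e-05 from DESeq2). These had the smallest edgeR p-values of the list, in opposite directions. The Mastermind coactivator gene Maml3 (0.26), the gamma-secretase subunit gene Ncstn (0.37), the Fringe glycosyltransferase gene Rfng (0.26) and the atypical ligand gene Dner (1.47) were higher at an unadjusted p under 0.05. Dner rested on low levels, of 0.14 to 0.43 CPM in control and 0.68 to 0.92 CPM in mutant hearts. The ligand gene Dll1 was at 11.7, 3.64 and 7.13 CPM in control and 7.31, 9.21 and 9.67 CPM in mutant hearts, with the widest spread among controls. For Lfng, another Fringe enzyme, the values were 3.76, 5.96 and 4.44 CPM against 4.03, 5.55 and 6.05 CPM, and both of these genes overlapped between the groups.

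**Figure D5:**
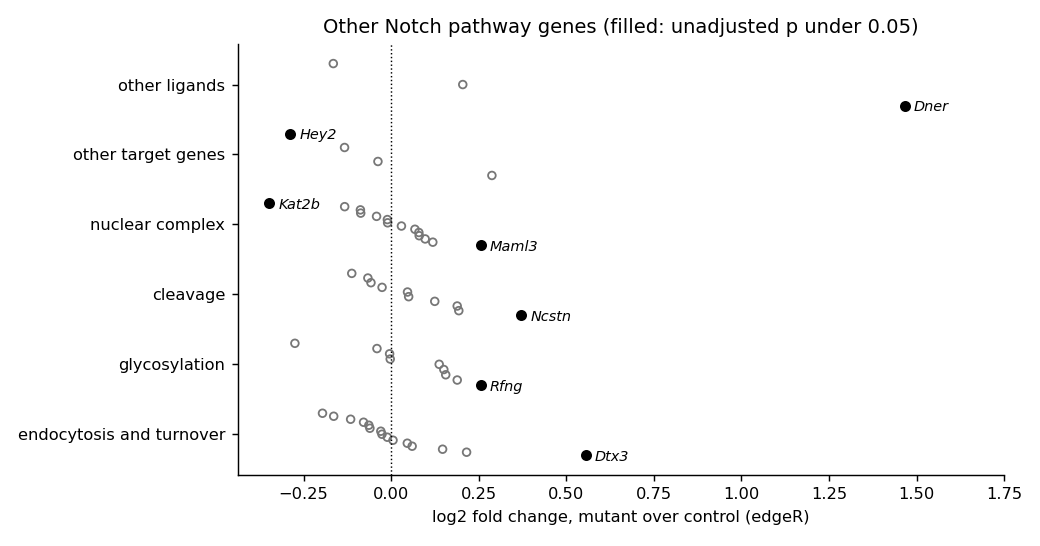
Log2 fold change (mutant over control, edgeR) of the 55 tested other Notch pathway genes, 1 point per gene, grouped by step of the pathway, with filled and named points for the 7 genes at an unadjusted p under 0.05. The points scatter on both sides of 0, with Hey2 (-0.29) and Kat2b (-0.35) the filled points below 0 and Dner (1.47) the farthest above it.

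The genes whose level over the 6 hearts ran most like each Notch gene were found by Pearson's r of log2 CPM over 14635 genes with a mean of at least 1 CPM. These values are descriptions over n = 6 hearts that include the difference between groups, and many genes run alike over so few points, from 58 genes with r over 0.9 for Notch2 to 537 for Nrarp. Heyl ran most like Cd34 (r = 0.999), Camk2g and Akr1c14. Nrarp was followed by E230013L22Rik (r = 0.996), Klf9 and Gm8722. For Hes1 the nearest genes were Frmd6 (r = 0.988), Alpl and Unc50.

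Notch3 ran most like Peg13 (r = 0.993), the pericyte marker Cspg4 (r = 0.991) and Rundc3a, and among the genes most like Notch1 were Scube2 (r = 0.989) and Gm11533. Notch2 was nearest to Adcy6 (r = 0.992), with Cyb5r1 also close, and Notch4 to Cers5 (r = 0.986), Azin2 and Hist1h2bn. Dll4 was nearest to Zbtb7b (r = 0.989), Lrba and Scube2, which it shared with Notch1. Jag1 ran most like Rbfox2 (r = 0.992), Gapdh and Acin1, and Jag2 like C87436 (r = 0.983), Tbc1d24 and Wdr5. Among the 10 genes themselves, the closest pair was Notch1 and Dll4 (r = 0.983), in both of which control replicate 3 was highest, and the most opposed was Jag1 and Nrarp (r = -0.911).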

How the data were processed

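Counts of reads per gene were deposited by the authors without normalization. Per the labels and the methods, 76 bp paired-end reads were mapped to GRCm38 (mm10) with STAR 2.4.2a and GENCODE vM6 and counted with summarizeOverlaps. The setting for overlapping genes and for strand was not given in the sources used here. A second deposited table holds the authors' own comparison (means, fold changes, errors and p-values from DESeq2). Only its gene symbols were used.

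Counts were tested in R 4.3.3 with edgeR 4.0.16 (filterByExpr with minimum count 10 and minimum total 15, TMM, quasi-likelihood test, condition as the only term), with an adjusted p threshold of 0.05. The standard error is the log2 fold change over the root of edgeR's F. The common biological coefficient of variation was 0.15. Ratios and shares were compared over hearts by an exact two-sided permutation test. Coordinates and exon lengths come from GENCODE vM21 (45229 of 45792 identifiers found), and promoter windows from RefSeq. Steps were tested on simulated data. The members and lists were chosen with earlier results of these data known. Besides the 10 genes, those named are pathway genes at an unadjusted p under 0.05 or defining a step, endothelial, pericyte, smooth muscle and arterial markers at that p, and the 3 genes most like each member, of which 2 are not reported here. Pdgfrb, Cspg4 and Cdh5 were named as references after their values were seen. Abcc9, Anpep, Acta2 and the globin genes were named later to show how their lists moved. Alternatives were RLE size factors, DESeq2 1.42.0, no filter, library totals alone, thinning to 28948836 counts, single hearts left out, a replicate block, a threshold of 0.1, the longest transcript, and Cdh5 as reference.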

Additional observations from a re-analysis of the deposited data

How the results depend on the processing

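Of the 10 Notch genes, 0 were called at an adjusted p under 0.05 with edgeR. The count was 2 with DESeq2 (Nrarp and Heyl), 1 with all genes of at least 1 count kept (Nrarp, adjusted p = 0.021 from edgeR), 1 at a threshold of 0.1 (Nrarp), and 0 with RLE size factors, with thinned counts and with the replicate block. Leaving out single hearts gave 0 to 2, with 2 only without control replicate 1. Calls over all tested genes grew in the same fits, from 0.0% to 6.1% with DESeq2, 2.13% with all genes of at least 1 count and 4.34% without control replicate 1. At an unadjusted p under 0.05 the count ran from 2 to 3, with Nrarp and Heyl below it in every setting run, and for the other pathway genes from 5 to 12, the highest without control replicate 1. The share of all genes at that p ran from 11.8% with DESeq2 to 22.8% without control replicate 1. When single hearts were left out, the log2 fold change ran from -0.25 to 0.17 for Notch1, from -0.12 to 0.078 for Notch2, from -0.22 to 0.068 for Notch4, from -0.18 to 0.11 for Dll4 and from -0.10 to 0.066 for Hes1. Without control replicate 3 the log2 fold changes of Notch1, Notch2, Notch4, Dll4 and Hes1 turned to 0.17, 0.078, 0.068, 0.11 and 0.0084, and Notch2 was at 0.026 without mutant replicate 2. Hes1 turned to 0.066 without control replicate 1, 0.036 without mutant replicate 1 and 0.021 with thinned counts. The cause was not tested. Nrarp, Heyl, Jag1, Jag2 and Notch3 kept their direction in all of these settings. The replicate numbers are not shown to pair the hearts, since same-numbered hearts correlated at 0.009, -0.12 and -0.094 in their deviations from the group means. With the replicate number as a block, 2 of the 10 members (Nrarp and Heyl) were at an unadjusted p under 0.05 in edgeR. So were 8 of the 55 tested other pathway genes, beside 20.2% of all tested genes. Scaling by library totals alone shifted the median of all genes by 0.057 and left the same 3 members without overlap. For most of these genes the spread between 3 hearts, more than counting depth, limits the precision, and exact tests of 3 against 3 hearts cannot pass 0.05.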
